A study of Drosophila melanogaster with 20 samples.

Results

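The 8 genes described here form the core of the circadian clock of Drosophila melanogaster: per, tim, Clk, cyc, vri, Pdp1, cwo and cry. They were chosen by gene symbol, and all 8 were found among the 17276 genes of the expression table. In the fly clock, the transcription factors CLK and CYC activate per, tim, vri, Pdp1 and cwo, and the PER and TIM proteins then enter the nucleus and inhibit CLK and CYC. VRI and PDP1 close another loop by repressing and activating Clk, CWO binds the same promoter sites as CLK and CYC, and CRY is the blue-light receptor that sends TIM to degradation. m6A, a methyl mark on adenosine in mRNA, is written by the METTL3-METTL14 enzyme together with a set of associated proteins that includes HAKAI.

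The libraries came from whole adult flies 1 to 2 days old, kept at 25 °C, in 5 groups: yw males, yw females, and males of Mettl3SK2/Df, Mettl14SK1 and Hakai4. All mutant flies were males, and the female flies were yw. The Mettl3 males carry 1 mutated copy over the deficiency Df(3R)Exel6197, which removes the neighbouring genes from the other chromosome as well, and the Hakai4 label refers to the CRISPR allele HakaiSH4. In each group, 2 libraries of poly(A) RNA fragments pulled down with an m6A antibody (IP) and 2 input libraries were sequenced. Nothing states that the 2 libraries of a group came from separate collections of flies, so the p-values measure the spread between these libraries, which may be technical.

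The input libraries give the RNA level of each gene as FPKM, the number of sequenced fragments scaled to transcript length and to the size of the library. Between 10334 and 13098 genes reached an FPKM of 1 in a library. The depth of the libraries is not known from these files. The mutated genes checked the labels: Mettl3 RNA had a mean FPKM of 2.26 in Mettl3 males and 5.20 in yw males, Mettl14 RNA 1.90 in Mettl14 males and 4.22 in yw males, and Hakai RNA 0.991 in Hakai males and 2.91 in yw males. In yw, Mettl14 and Hakai males, the libraries numbered 2 deviated from those numbered 1 in a shared way over 13079 genes (r from 0.46 to 0.67), while the Mettl3 libraries and the female libraries did not share this deviation (r from -0.04 to 0.09). Several clock RNAs are known to cycle over the day. The time of day at which flies were collected is not given in the sources used here, so a difference in collection time and a difference between groups cannot be told apart.

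The m6A data consist of 1 list of peaks per group, called by the authors from both IP libraries against both input libraries. A peak is a stretch of exonic RNA enriched in the IP, and its fold enrichment is the ratio of IP over input. Since each value belongs to a whole group, it has no replicate error and no test was made. The 8 genes had 28 peaks of the 20153 in the yw male list, 25 of 20540 in yw females, 25 of 21050 in Mettl3 males, 23 of 18295 in Mettl14 males and 29 of 18677 in Hakai males.

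In yw flies, the strongest m6A peaks of the clock genes lay in their 5′ UTRs. A 5′ UTR peak was listed for 6 of the 8 genes in yw males, namely per, tim, Clk, vri, Pdp1 and cwo, and for the same 6 genes in yw females. Over all genes that reached a mean FPKM of 1 in yw males, 24.3% had a 5′ UTR peak in that list. The other 2 genes, cyc and cry, had no 5′ UTR peak in any of the 5 lists. In all 3 mutants, the highest 5′ UTR enrichment of per, tim, Clk, vri and cwo was below 0.5 of the yw male value or the peak was not listed, and Pdp1 was so in Mettl3 and Mettl14 males only.

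**Figure D1:**
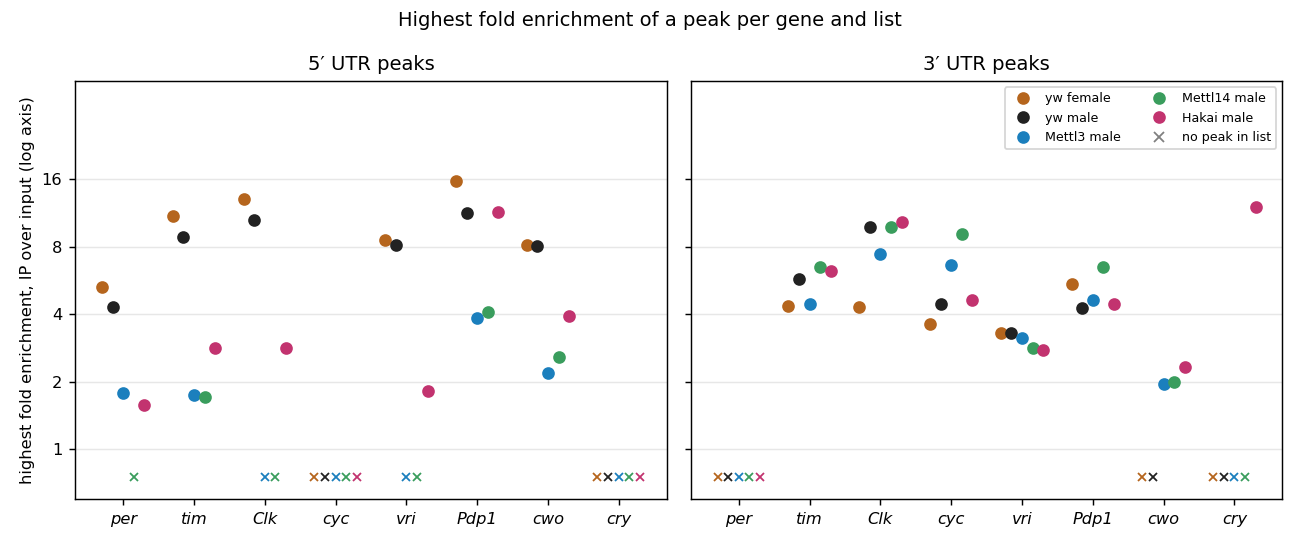
Highest fold enrichment (IP over input, log axis) of a 5′ UTR peak (left) and a 3′ UTR peak (right) for each clock gene in the 5 lists. Crosses mark lists that assign no such peak to the gene. On the left the yw points lie between 4.30 and 15.7 and nearly all mutant points lie lower, except Pdp1 in Hakai males at 11.4, while on the right the lists are mixed.

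The period gene per, on chromosome X (chrX:2685580-2692780, plus strand, Release 6 of the genome), encodes the inhibitor PER. Its 5′ UTR peak reached from the gene's start into the coding exons and had a fold enrichment of 4.30 in yw males and 5.29 in yw females. In Mettl3 males a 5′ UTR peak of 1.79 was left, in Hakai males one of 1.57, and in Mettl14 males none. The exonic length of this peak was 511 bases in yw males, 840 in yw females, 181 in Mettl3 males and 121 in Hakai males. The Hakai peak is weak, with a log10 FDR of -1.96, so it is not in the list at an FDR of 0.01 or below. In Mettl3 males a peak annotated as exonic, from base 2688476 to 2688775, had a fold enrichment of 3.22. Exonic peaks overlapping it had 1.86 in yw males and 1.44 in Hakai males, and in yw females the 5′ UTR peak covered this stretch. The 5′ UTR values of per thus depend on how peaks were split and annotated. A further peak in the coding exons, 4880 to 5180 bases from the gene's start, had a fold enrichment of 1.76 in yw males, 2.04, 2.42 and 1.93 in Mettl3, Mettl14 and Hakai males and was thus not lower in the mutants.

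The gene tim (chr2L:3493986-3508119, minus strand) encodes the partner of PER that is degraded in light. In yw males, 1 peak ran over 5 exonic blocks of 1553 bases in all from the gene's start, with a fold enrichment of 8.86, and in yw females a peak of 11.0 covered 1344 bases. The enrichment was 1.75 over 330 bases in Mettl3 males and at most 1.71 in Mettl14 males. In Hakai males, 2 peaks of 2.80 and 2.82 covered 658 and 359 bases. In Mettl3 males no peak was listed in the blocks nearest to the gene's start, and in Hakai males peaks were listed over most of them at lower enrichment. By contrast, the peak at the end of the tim 3′ UTR was listed at 5.74 in yw males, 4.34 in yw females, 4.45, 6.52 and 6.24 in Mettl3, Mettl14 and Hakai males.

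**Figure D2:**
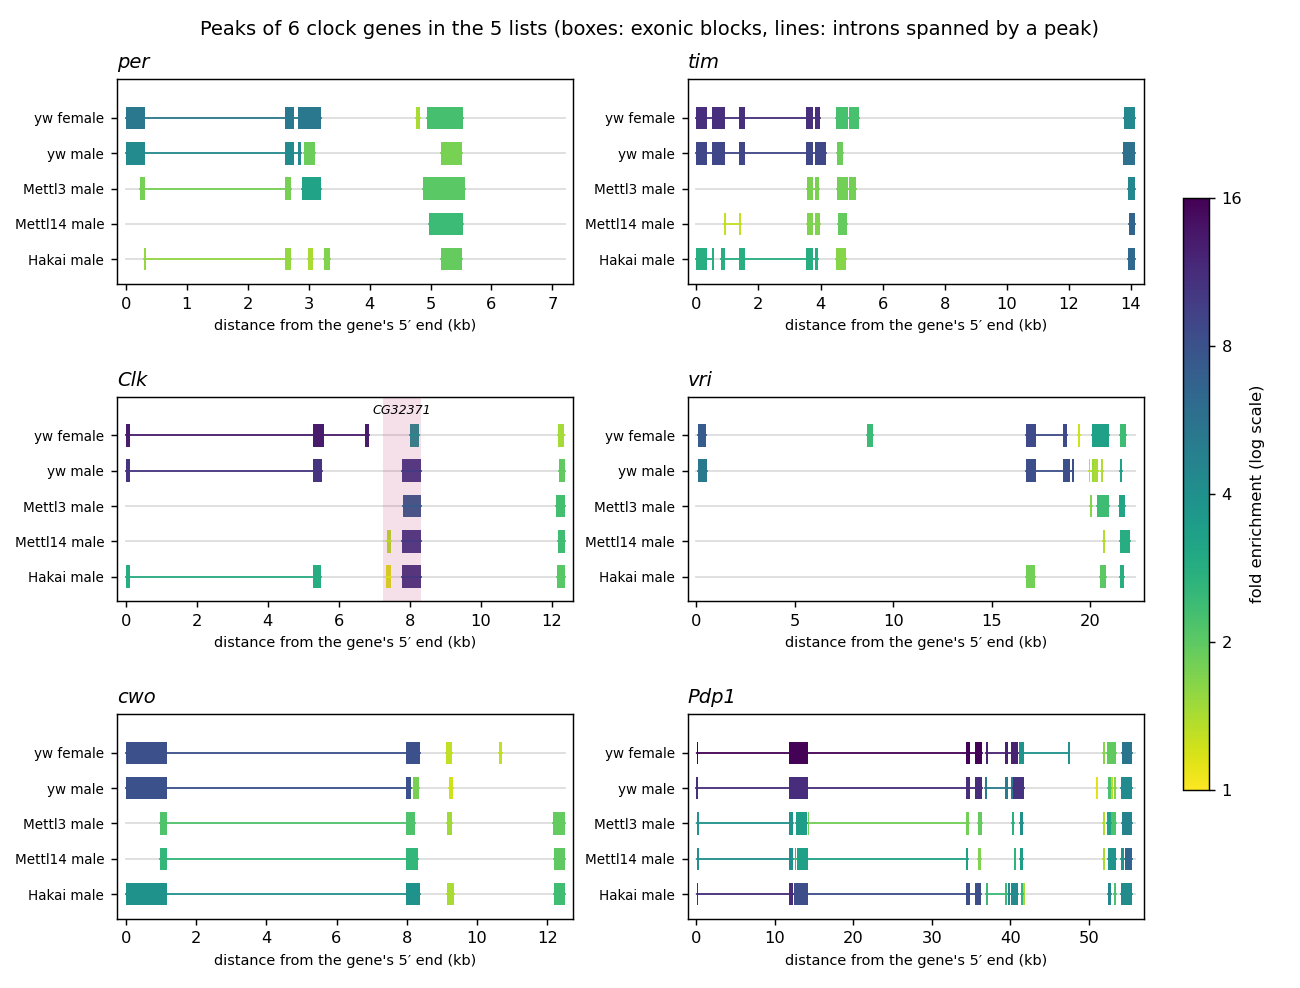
Peaks of per, tim, Clk, vri, cwo and Pdp1 in the 5 lists, drawn by distance from the gene's 5′ end in kb and coloured by fold enrichment (log scale), with boxes for exonic blocks and lines for introns that a peak spans. The dark peaks at the left end of tim, with a fold enrichment of 8.86 in yw males, are missing or pale in the mutant lists, while the peaks at its right end are present in all 5, and the shaded part of Clk is the gene CG32371.

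The activator genes Clk and cyc differed from each other. Clk (chr3L:7763233-7775603, minus strand) had a 5′ UTR peak with a fold enrichment of 10.5 in yw males, 13.1 in yw females and 2.84 in Hakai males, and none in Mettl3 or Mettl14 males. The Hakai peak covered 330 exonic bases, close to the 360 bases in yw males. cyc (chr3L:19813770-19815938, minus strand) had a single peak, in its 3′ UTR, with a fold enrichment of 4.46 in yw males, 3.62 in yw females, 6.62, 9.09 and 4.62 in Mettl3, Mettl14 and Hakai males. The value in Mettl14 males was 2.04 times that in yw males, a ratio higher than that of 96.3% of the 8164 genes with a 3′ UTR peak in yw males. This share counts the 944 genes with no 3′ UTR peak in Mettl14 males as a ratio of 0.

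The 2 genes of the loop that controls Clk, vri and Pdp1, had several 5′ UTR peaks. In vri (chr2L:5288944-5311223, plus strand), the peak near the first start had a fold enrichment of 5.26 in yw males and 7.30 in yw females and was in none of the mutant lists. The other, 16725 bases from the gene's start, had 8.19 in yw males and 8.55 in yw females, and of the mutants only Hakai males had a peak there, with 1.81. The highest 3′ UTR enrichment of vri was 3.31 in yw males, 3.30 in yw females, 3.13, 2.84 and 2.78 in Mettl3, Mettl14 and Hakai males.

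Pdp1 (chr3L:7811458-7867369, minus strand), a gene with 13 transcripts, had the highest 5′ UTR enrichment of the 8 genes, at 11.3 in yw males and 15.7 in yw females. Its value was 3.87, 4.08 and 11.4 in Mettl3, Mettl14 and Hakai males. Pdp1 was thus the only one of the 6 genes whose highest 5′ UTR enrichment in Hakai males was not lower than in yw males. The yw male value belongs to 1 peak of 3807 exonic bases. In Hakai males this stretch held a peak of 8.33 over 2878 bases and the one of 11.4 over 600 bases. The comparison of Pdp1 with yw males thus depends on how peaks were split. Of the 3429 genes with a 5′ UTR peak in yw males, 87.2% had a lower ratio in Hakai males than Pdp1. This share counts the 1439 genes with no 5′ UTR peak in Hakai males as a ratio of 0. The other 5′ UTR peaks of Pdp1, further inside the gene, had lower values in Hakai males: the peak that lies 40198 bases from the gene's start in yw males had a fold enrichment of 10.7 there and a partner of 4.30 in Hakai males, and its neighbour had 5.04 and a partner of 2.44. Of the 3′ UTR peaks of Pdp1, 3 had partners with higher values in Hakai males, where the yw male peaks of 1.35 and 2.20 shared a partner of 4.43. In Mettl3 and Mettl14 males all of these 3′ UTR peaks had partners with higher values, some of them shared.

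In cwo (chr3R:10388258-10400752, plus strand), the 5′ UTR enrichment was 8.06 in yw males, 8.15 in yw females, 2.18, 2.57 and 3.94 in Mettl3, Mettl14 and Hakai males. The first 988 bases of the gene were outside the peak in Mettl3 and Mettl14 males and inside it in Hakai males and in both yw lists. At the end of the cwo 3′ UTR, a peak was listed in the mutants alone, with 1.95, 1.99 and 2.33 in Mettl3, Mettl14 and Hakai males. cry (chr3R:19212154-19215442, plus strand), the light receptor, had no peak in 4 lists. Its 1 peak, in Hakai males, had a fold enrichment of 12.1 and lay from base 19215434 to 19215764. All of it was between the start and end of vib, a gene on the other strand. In yw females, Mettl3 and Mettl14 males, peaks at this place were assigned to vib, with 4.02, 8.76 and 2.81, so the peak cannot be credited to cry.

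Counted over the 6 genes, the 5′ UTR enrichment was lower than in yw males, or the peak not listed, for 6 genes in Mettl3 males, 6 in Mettl14 males and 5 in Hakai males, and for 0 in yw females. Over all 3429 genes with a 5′ UTR peak in yw males, this share was 85.7%, 88.6% and 86.7% in the same order of mutants and 39.6% in yw females. Below 0.5 of the yw male value or not listed were 6 of 6 genes in Mettl3 males, 6 of 6 in Mettl14 males, 5 of 6 in Hakai males and 0 of 6 in yw females. Over all 3429 genes, the latter held for 71.3%, 76.7% and 63.3% in Mettl3, Mettl14 and Hakai males and for 14.2% in yw females, so most genes with such a peak had a lower value and the share among the clock genes is read against this background. The 4 comparisons share the yw male list. Only peaks annotated to the 5′ UTR enter these counts, which leaves out the exonic per peak of 3.22 in Mettl3 males. Of the 5 clock genes with a 3′ UTR peak in yw males, 0 were below 0.5 of that value or not listed in Mettl3, Mettl14 and Hakai males, against 11.5%, 15.0% and 14.7% of 8164 genes, and 1 was (Clk) in yw females, against 39.9%. That Clk peak lies inside the gene CG32371 and may not belong to Clk. The Clk 3′ UTR peak outside CG32371 had 1.96 in yw males and 1.45 in yw females. A peak at the 3′ end of per, assigned to CG2650, is not among the 3′ UTR peaks counted here.

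The median ratio to the yw male value, over genes with a 5′ UTR peak in both lists, was 0.31 for 4 clock genes and 0.63 for 1715 genes in Mettl3 males. In Mettl14 males it was 0.32 for 3 clock genes and 0.68 for 1309 genes, and in Hakai males 0.34 for 6 clock genes and 0.63 for 1990 genes. In yw females the median was 1.24 for the 6 clock genes and 1.18 for 3036 genes. These medians leave out the genes with no peak left, which were 2 clock genes in Mettl3 males, 3 in Mettl14 males and 0 in Hakai males.

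Counting each peak by itself gives a milder picture, because a small peak that lies inside a long one counts as its partner. Of the 28 yw male peaks of the 8 genes, 9 had no partner in Mettl3 males, 12 in Mettl14 males, 5 in Hakai males and 2 in yw females, where a partner overlaps more than 50% of the smaller peak. Over all 20153 yw male peaks, 23.3% had none in Mettl3, 28.6% in Mettl14, 24.9% in Hakai males and 27.3% in yw females. Of the 10 clock gene peaks in 5′ UTRs, 5, 5 and 1 had no partner in the Mettl3, Mettl14 and Hakai lists, and all 9 in 3′ UTRs had one in these lists. Over all 5′ UTR peaks of yw males, 46.3%, 56.1% and 38.2% had none, and over all 3′ UTR peaks 9.24%, 13.2% and 13.3%. In yw females all 10 and all 9 had a partner, while 10.5% of all 5′ UTR and 27.6% of all 3′ UTR peaks had none. The exonic length covered by 5′ UTR peaks of the 6 genes was 11211 bases in yw males, 10640 in yw females, 3812, 3361 and 8366 in Mettl3, Mettl14 and Hakai males, so the 5′ UTR peaks of Hakai males covered more bases than those of the other mutants. With a partner defined as at least 50% of both peaks, which counts a shortened peak as lost, 17, 19, 11 and 14 of the 28 peaks had no partner in Mettl3, Mettl14, Hakai males and yw females, beside 40.7%, 45.1%, 41.0% and 46.3% of all peaks.

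The RNA levels of the 8 genes were next compared between each mutant and yw males. No RNA of the 8 was called as changed: 0 of the 8 genes combined a log2 fold change of 1 or more in either direction with an unadjusted p under 0.05 (limma), the rule for a call, in any of the 3 mutants. Of 13079 genes tested, 4.26%, 4.63% and 4.19% were called in the Mettl3, Mettl14 and Hakai comparisons. At an adjusted p under 0.05 (Benjamini-Hochberg over all genes), 0 of the 8 passed in any mutant, beside 8.79%, 9.05% and 8.7% of all genes. With the replicate number as a block in the fit, the adjusted p was under 0.05 for Clk in Mettl3 males (0.0225), for vri in Mettl14 males (0.0462), and for Clk (0.00915) and tim (0.0400) in Hakai males. More genes passed in that fit: 2212, 1789 and 1601 of all 13079 in the Mettl3, Mettl14 and Hakai comparisons. An unadjusted p under 0.05 was reached by 2, 1 and 4 of the 8 genes in the Mettl3, Mettl14 and Hakai comparisons, beside 26.2%, 24.2% and 20.6% of all genes. The fold changes below are on the log2(FPKM + 1) scale, with the standard error of the fit, and with 2 libraries per group they have wide intervals.

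**Figure D3:**
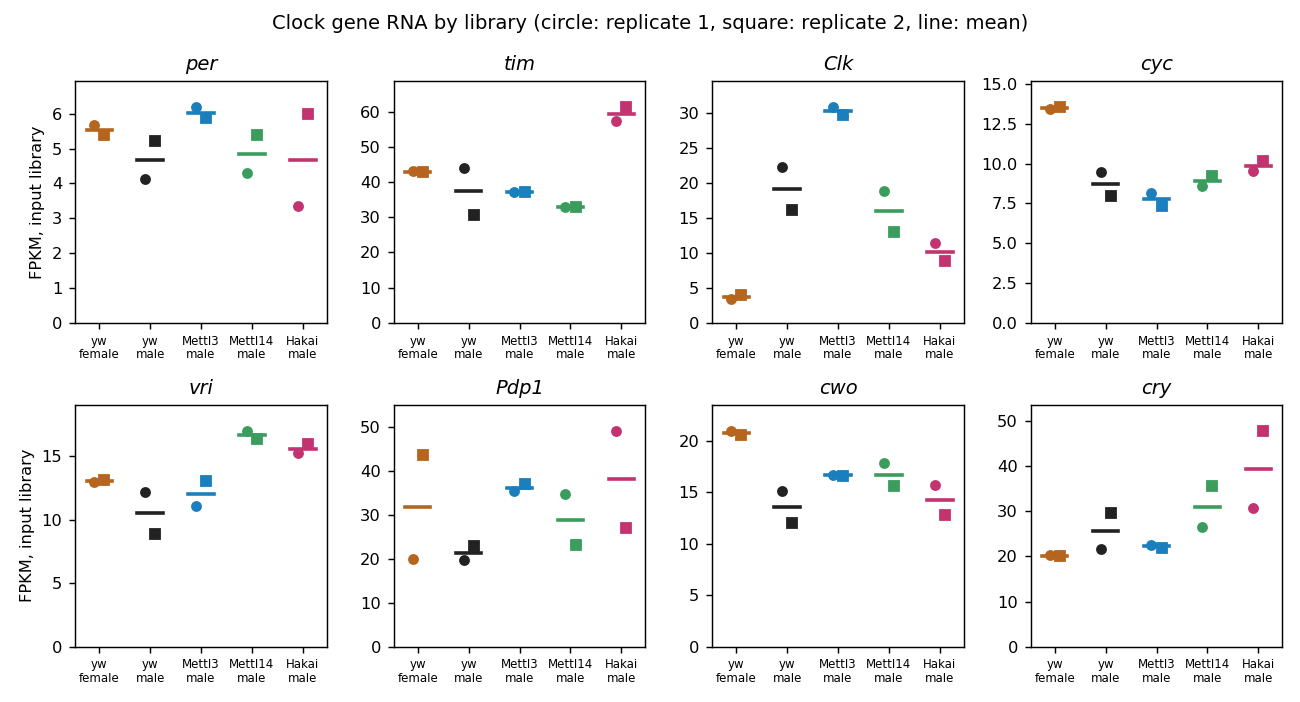
RNA level (FPKM) of each clock gene in the 10 input libraries, with circles for replicate 1, squares for replicate 2 and lines for the mean of the 2. The Hakai libraries at 57.3 and 61.3 are above all others for tim, the Mettl3 libraries at 30.9 and 29.8 are above all others for Clk, and the female libraries at 3.41 and 3.96 are the lowest for Clk.

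The inhibitor per was the least abundant of the 8 RNAs in all 4 groups of males, with an FPKM of 4.12 and 5.20 in the 2 yw male libraries. It was at 6.19 and 5.87 in the Mettl3 libraries, 4.29 and 5.39 in the Mettl14 libraries and 3.37 and 5.99 in the Hakai libraries. The log2 fold changes against yw males of per were 0.32 ± 0.23, 0.05 ± 0.23 and -0.03 ± 0.23 in the Mettl3, Mettl14 and Hakai males (SE, n = 2 and 2 libraries), and the Mettl14 and Hakai libraries overlapped those of yw males.

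tim had the highest mean FPKM of the 8 genes in each group, although Pdp1 or cry was above it in both Mettl14 libraries and Pdp1 in yw female replicate 2. It had an FPKM of 43.8 and 30.8 in yw males, 37.2 and 37.2 in the Mettl3 libraries, 33.0 and 33.0 in the Mettl14 libraries and 57.3 and 61.3 in the Hakai libraries. Both Hakai libraries were above every other library of the series. The log2 fold change in Hakai males was 0.68 ± 0.16, with an unadjusted p of 0.00501 and an adjusted p of 0.0551 in the limma fit. It depended on the yw male libraries, with 0.92 and an adjusted p of 0.0106 without yw male replicate 1, and 0.43 and 0.0954 without yw male replicate 2. In the other mutants the tim libraries lay within the range of the yw males, with log2 fold changes of 0.02 ± 0.16 and -0.15 ± 0.16.

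The Clk level was higher than in yw males in Mettl3 and lower in Hakai males, with neither called. Its FPKM was 22.3 and 16.2 in yw males, 30.9 and 29.8 in the Mettl3 libraries, 18.9 and 13.0 in the Mettl14 libraries and 11.4 and 8.88 in the Hakai libraries. The Mettl3 libraries were above and the Hakai libraries below both yw male libraries, while those of Mettl14 overlapped them. The log2 fold change was 0.65 ± 0.22 in Mettl3 males, with an adjusted p of 0.126 in the limma fit. In Hakai males it was -0.85 ± 0.22, with an adjusted p of 0.0702, and without yw male replicate 2 or Hakai male replicate 1 it became -1.07 or -1.02 and passed the threshold of a call.

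cyc, the partner of Clk, was at 9.48 and 7.98 FPKM in yw males, 8.16 and 7.34 in the Mettl3 libraries, 8.61 and 9.19 in the Mettl14 libraries and 9.56 and 10.2 in the Hakai libraries. Its log2 fold changes were -0.15, 0.03 and 0.16 (SE 0.11 each), smaller than those of Clk. Its 3′ UTR peak, with the highest enrichment in Mettl14 males, was thus not accompanied by a called change in RNA.

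vri, the repressor of Clk, was at 12.2 and 8.90 FPKM in yw males, 11.1 and 13.0 in the Mettl3 libraries, 17.0 and 16.4 in the Mettl14 libraries and 15.2 and 16.0 in the Hakai libraries. All Mettl14 and Hakai libraries were above those of yw males. The log2 fold change in Mettl14 males was 0.63 ± 0.15, with an adjusted p of 0.0549, and in Hakai males 0.54 ± 0.15, with an adjusted p of 0.0922 (limma). Without yw male replicate 1 these values of vri were 0.84 and 0.74 and passed the adjusted p (0.0250 and 0.0370), and without yw male replicate 2 they were 0.43 and 0.33 and did not. Pdp1, the activator of Clk, was at 19.7 and 23.0 FPKM in yw males, 35.3 and 37.0 in the Mettl3 libraries, 34.7 and 23.1 in the Mettl14 libraries and 49.1 and 27.1 in the Hakai libraries. Its 6 mutant libraries were all above those of yw males, yet its log2 fold changes of 0.74, 0.40 and 0.75 have a standard error of 0.30, and their adjusted p-values were 0.180, 0.469 and 0.217 in the limma fit. Without Hakai male replicate 2 the value of Pdp1 in Hakai males was 1.17 and passed the threshold of a call.

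cwo was at 15.1 and 12.0 FPKM in yw males, 16.7 and 16.6 in the Mettl3 libraries, 17.8 and 15.6 in the Mettl14 libraries and 15.8 and 12.8 in the Hakai libraries, with log2 fold changes of 0.29, 0.29 and 0.07 (SE 0.15 each). cry, the light receptor, was at 21.6 and 29.7 FPKM in yw males, 22.6 and 22.0 in the Mettl3 libraries, 26.5 and 35.6 in the Mettl14 libraries and 30.7 and 47.9 in the Hakai libraries. The Hakai libraries were above those of yw males, with a log2 fold change of 0.58 ± 0.25 and an adjusted p of 0.267 (limma).

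**Figure D4:**
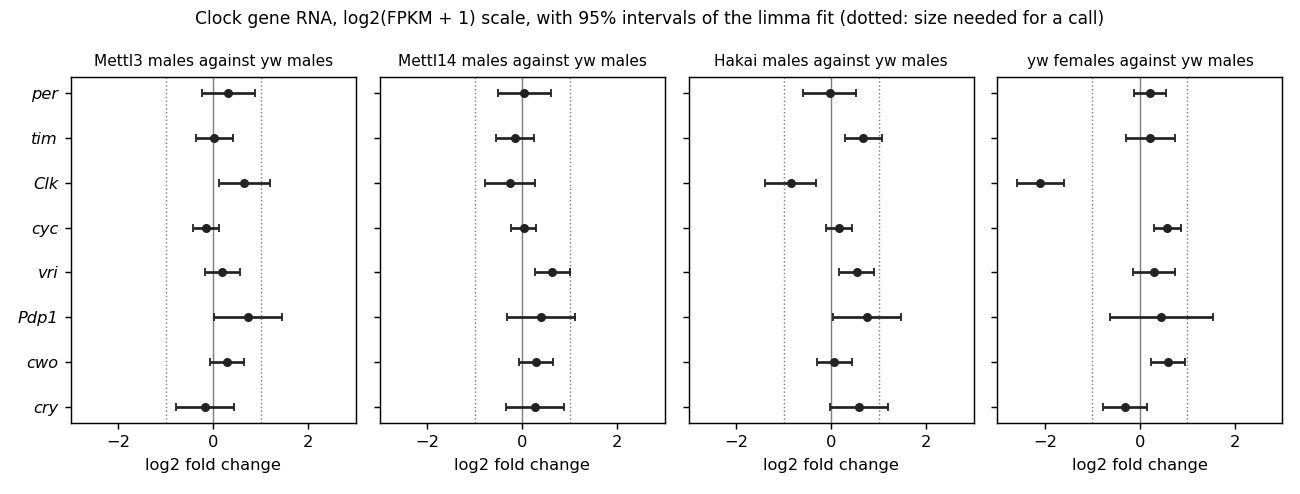
Log2 fold change of each clock gene on the log2(FPKM + 1) scale, with the 95% interval of the limma fit (2 libraries per group) and dotted lines at the size that a call needs. Only Clk in yw females, at -2.10, lies outside the dotted lines. The intervals of tim, vri, Clk and Pdp1 in Hakai males do not reach 0. The same holds for Clk and Pdp1 in Mettl3 males, vri in Mettl14 males, and Clk, cyc and cwo in yw females.

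For 4 of the 8 genes, the 2 libraries of a group differed in the same direction in yw, Mettl14 and Hakai males: Clk and cwo were higher in replicate 1, and cry and per in replicate 2. For Clk, replicate 2 minus replicate 1 was -0.44, -0.51 and -0.33 on the log2 scale in these 3 groups, and -0.05 in Mettl3 males. For cry it was 0.44, 0.41 and 0.63, and -0.04 in Mettl3 males. The values of cwo were -0.31, -0.18 and -0.28, and those of per 0.28, 0.27 and 0.68, with -0.01 and -0.07 in Mettl3 males. Over the 8 male libraries, Clk and cry were inversely related (r = -0.92, n = 8), the strongest value among all pairs of the 8 genes. The next were Clk and cyc (r = -0.76) and tim and cyc (r = 0.70). These values describe libraries that share these replicate differences and the genotypes.

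Between the mutants, Clk was called in 1 of the 3 comparisons. It was higher in Mettl3 than in Hakai males by 1.50 ± 0.22 on the log2 scale, with an adjusted p of 0.0102 (limma), and no library of one group overlapped the other. Of all genes, 4.7% were called in this comparison and 11.5% passed an adjusted p of 0.05. The other gene that passed the adjusted p was tim, lower in Mettl3 than in Hakai males by 0.66 ± 0.16 (log2 fold change -0.66) with an adjusted p of 0.0498. tim was also lower in Mettl14 than in Hakai males, with a log2 fold change of -0.83 ± 0.16 and an adjusted p of 0.0345 (limma), in a comparison where 3.52% of genes were called and 6.49% passed the adjusted p. With a replicate block, 1, 3 and 2 clock genes passed the adjusted p for Mettl3 against Mettl14, Mettl3 against Hakai and Mettl14 against Hakai males. In the same order, 2960, 2596 and 1262 of all 13079 genes did so. Between Mettl3 and Mettl14 males without the block, where 4.98% of genes were called and 10.6% passed the adjusted p, 0 of the 8 genes passed either threshold and 2 had an unadjusted p under 0.05, beside 29.8% of all genes. Clk had the largest difference there, 0.91 ± 0.22 with an adjusted p of 0.0509 (limma), and without Mettl14 male replicate 1 it was 1.16 and passed the threshold of a call. With Mettl3 male replicate 1, Mettl3 male replicate 2 or Hakai male replicate 2 left out, the adjusted p of Clk between Mettl3 and Hakai males was 0.0861, 0.0758 or 0.0600. The adjusted p of tim was above 0.05 in both comparisons with any 1 of the 6 mutant libraries left out, between 0.0811 and 0.243 for Mettl3 and between 0.0922 and 0.148 for Mettl14 males.

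Between the sexes, Clk was the 1 called gene of the 8. Its FPKM was 3.41 and 3.96 in yw females against 22.3 and 16.2 in yw males, a log2 fold change of -2.10 ± 0.18 with an adjusted p of 0.000974 (limma). In yw females Clk was the least abundant of the 8 RNAs, whereas by mean FPKM it ranked 4 in yw males. cyc was at 13.4 and 13.5 FPKM in yw females and cwo at 21.0 and 20.6, both above the yw male libraries, with log2 fold changes of 0.58 ± 0.11 (adjusted p = 0.0114, limma) and 0.59 ± 0.13 (adjusted p = 0.0203, limma). Of 12778 genes tested, 32.1% were called and 58.8% passed the adjusted p, so 1 and 3 of the 8 genes are below those shares. A median FPKM of 3.02 to 3.09 in female and 5.53 in male libraries underlies these values. With all libraries set to equal medians, the log2 fold changes moved up by 0.37, Clk was at -1.73, and 6 of the 8 genes passed the adjusted p, 5 of them higher in females. This shift applies to all genes, and the share of all genes that then passed is not given here, so these counts have no background. With each library left out in turn, the log2 fold change lay between -2.32 and -1.88 for Clk, 0.47 and 0.69 for cyc, and 0.43 and 0.75 for cwo.

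The remaining 5 genes passed neither threshold between the sexes. per was at 5.68 and 5.39 FPKM in yw females, tim at 43.1 and 42.8, and vri at 13.0 and 13.1, with log2 fold changes of 0.21, 0.22 and 0.30. cry was at 20.3 and 20.1 FPKM, with a log2 fold change of -0.31. Pdp1 differed more between the 2 female libraries, 19.8 and 43.5 FPKM, than between the sexes, and without female replicate 1 its log2 fold change of 0.45 became 1.00 and passed the threshold of a call.

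The level of Clk has to be read beside a gene that lies within it. CG32371 (chr3L:7767269-7768352, minus strand) has all of its 1084 bases inside Clk on the same strand, so reads from it and from Clk cannot be told apart by position or strand alone. Its FPKM was between 188 and 346 in the male libraries and was 0.720 and 0.608 in the female libraries (log2 fold change -7.12, adjusted p = 3.82e-05, limma). In males, the Clk level was 3.42% to 8.95% of that of CG32371. How the 2 were separated when FPKM was computed is not given in the sources used here, and the part of CG32371 in the Clk difference between the sexes was not tested. CG32371 had log2 fold changes of 0.56 ± 0.35 in Mettl3 and 0.14 ± 0.35 in Hakai males, and its part in the Clk values of the mutants was not tested.

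**Figure D5:**
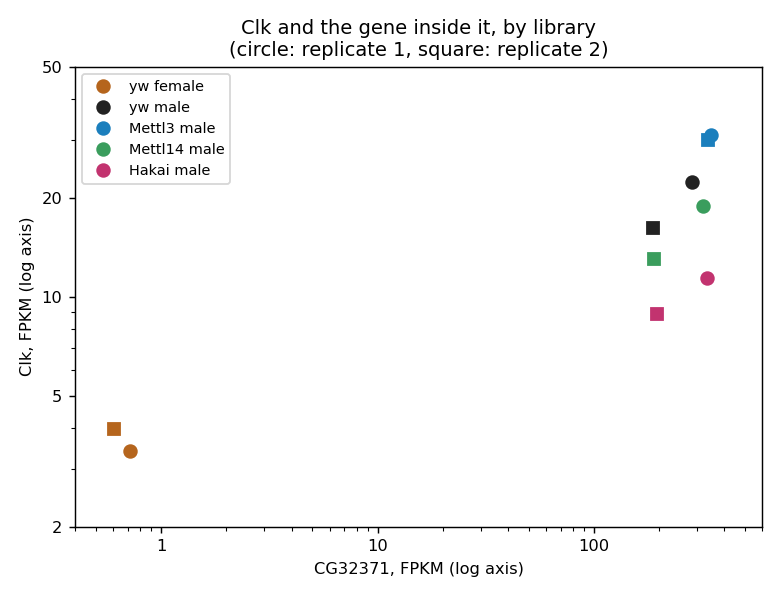
FPKM of Clk against FPKM of CG32371, the gene inside it, in the 10 input libraries (both axes are log scales), with circles for replicate 1 and squares for replicate 2. The female libraries lie at 0.608 and 0.720 for CG32371 and the male libraries at 188 to 346, and within each of yw, Mettl14 and Hakai males replicate 1 is higher than replicate 2 for both genes.

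The same overlap touches a Clk peak. The peak assigned to the Clk 3′ UTR, from base 7767269 to 7767825 in yw males, lies with 100% of its bases inside CG32371. Its fold enrichment was 9.84 in yw males, 4.30 in yw females, 7.41, 9.84 and 10.3 in Mettl3, Mettl14 and Hakai males, and to which of the 2 transcripts it belongs cannot be told apart. The peak at the distal end of Clk, outside CG32371, was weaker, with 1.96 in yw males, 1.45 in yw females, 2.29, 2.33 and 2.05 in Mettl3, Mettl14 and Hakai males. The 5′ UTR peak of Clk lies outside CG32371 in every list that has it. Other overlaps were small. per shares 49 bases with CG2650 on the other strand. The FPKM of CG2650 was 8.78 ± 0.33 in Mettl3 males and 129 ± 67.4 in yw males (SD, n = 2). A 3′ UTR peak assigned to CG2650 ended at base 2692780, the last base of per, in all 5 lists. In yw males it began at base 2692600, within per, and 27.1% of its bases lay inside CG2650. Its fold enrichment was 3.72 in yw males, 2.80 in yw females, 2.67, 4.95 and 3.06 in Mettl3, Mettl14 and Hakai males. To which of the 2 genes it belongs was not tested. vri shares 443 bases with lncRNA:CR45730 and cry 9 bases with vib.

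Whole flies mix many tissues that have clocks, so fewer cells of a type and less RNA per cell cannot be told apart. Summed over 14 photoreceptor markers, the FPKM was 1793 to 1887 in yw males, 1566 to 1577 in the Mettl3, 1865 to 1939 in the Mettl14 and 1775 to 1787 in the Hakai libraries, with 0 markers at 0. Over 8 neuron markers it was 176 to 219 in yw males and 157 to 221 in Hakai males, and over 5 glia markers 397 to 415 and 432 to 490, with 0 markers of either list at 0. Of 7 fat body markers, 4 were called higher in Hakai males and 3 each in Mettl3 and Mettl14 males, with sums of 613 to 632, 403 to 406 and 283 to 339 against 103 to 149 in yw males. The list holds Lsp2, apolpp, Fbp1, Lsp1gamma and the yolk protein genes Yp1, Yp2 and Yp3. Its members did not move together: 1 was called higher and 3 lower in Mettl3 than in Hakai males. The sums thus cannot be read as an amount of fat body. The fat body has a clock of its own. In yw females 4 fat body markers were called higher as well, with sums of 4407 to 4471. Of 6 midgut markers, 2 were called higher in Mettl14 males and 1 lower in Hakai males, with sums of 869 to 1880 and 364 to 629 against 557 to 859 in yw males. Of 4 Malpighian tubule markers, 1 was called higher in each of Mettl14 and Hakai males, and of 5 flight muscle markers 1 was called lower in Mettl3 males, with sums of 5394 to 5399 against 9403 to 12145 in yw males. Of 5 accessory gland markers, 1 was called higher in each of Mettl3 and Mettl14 males, and of 7 testis markers 1 was called lower in Mettl3 males. The part of these tissue differences in the levels of the clock genes was not tested. Over all genes, 4.26%, 4.63% and 4.19% were called in Mettl3, Mettl14 and Hakai males and 32.1% in yw females. Between the sexes, all 7 testis markers and all 5 accessory gland markers were called lower and 6 of 7 ovary markers called higher in females, and their part in the clock gene values was not tested.

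Lists of genes around the core were counted in the same way. Of 13 kinases, phosphatases and ubiquitin ligases that act on clock proteins, 0 were called in Mettl3, Mettl14 or Hakai males, and of 10 cofactors of the clock, many of which act on translation, 0 were called. Of all genes, 4.26%, 4.63% and 4.19% were called in these comparisons, so counts of 0 in short lists say little. In yw females CkIIalpha, the catalytic subunit of casein kinase 2, was called higher, at 108 and 112 FPKM against 58.3 and 45.7 in yw males (log2 fold change 1.08 ± 0.14). Of the cofactors, 3 were called higher and 1 lower in females, in a comparison where 32.1% of all genes were called. The RNA helicase gene me31B was at 427 and 434 FPKM against 63.1 and 53.3, Top2, which encodes topoisomerase 2, at 49.0 and 47.2 against 8.61 and 7.41, and the RNA-binding protein gene sm at 8.21 and 8.30 against 44.9 and 35.5 in yw males.

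Of 23 tested genes for neuropeptides, receptors, channels and light input of the clock neurons, 1 was called in a mutant, in Hakai males, where 4.19% of all genes were called. CCHa1, which encodes a neuropeptide of clock neurons and of gut endocrine cells, was at 17.7 and 16.7 FPKM in Hakai males and 4.17 and 4.08 in yw males, with a log2 fold change of 1.83 ± 0.09 and an adjusted p of 0.000148 (limma). Its level in Mettl3 males was 4.17 and 4.55 and in Mettl14 males 4.16 and 4.11, so the Hakai libraries stood alone. The midgut markers given above had a median log2 fold change of -0.58 in Hakai males, and their part in this value was not tested. The median log2 fold change over the 8 clock genes was 0.24, 0.16 and 0.35 in Mettl3, Mettl14 and Hakai males, beside 0.03, 0.11 and 0.03 over all genes tested.

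Across the 8 male libraries, the genes with the pattern most like that of per were CG5781, CG2617 and CG6512, with a Pearson r of 0.97, 0.96 and 0.95 on the log2 scale. For Clk they were CG14464, CG43321 and Dl, the gene of the Notch ligand Delta, with r of 1.00, 0.99 and 0.99. CG43321 was at 60.4 and 53.0 FPKM in yw males, 71.6 and 71.7 in the Mettl3 libraries, 54.7 and 42.7 in the Mettl14 libraries and 42.6 and 35.5 in the Hakai libraries, the same order of groups as Clk. Among 13071 genes such high values over 8 libraries are a description only.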

How the data were processed

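The authors purified and fragmented poly(A) RNA, made strand-specific dUTP libraries and used fastp to trim the reads, HISAT2 for mapping and exomePeak for the peaks. The fold enrichment of a peak is the deposited exomePeak ratio of IP over input, and its p-value and FDR are the authors', given as log10 values. The region and gene of a peak are the authors' ChIPseeker annotation. FPKM values were computed by the authors with StringTie from the input libraries, and whether strand was used is not given in the sources used here. The columns of Gene Ontology and pathway terms were not used. No file holds read counts, so intervals that need depth were not given.

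Here, limma 3.58.1 in R 4.3.3 (lmFit, eBayes with trend) was run on log2(FPKM + 1) of genes reaching a mean FPKM of 1, once for the 8 input libraries of males and once for the 4 of yw flies. A call needs a log2 fold change of 1 or more in either direction and an unadjusted p under 0.05, and adjusted p-values are Benjamini-Hochberg over all genes tested. Peaks were compared in Python 3.11.15 with pandas 2.3.3 and were partners when the shared stretch exceeded 50% of the smaller one. Both procedures were tested on simulated data. The text names all 8 members, of the other gene lists at most 3 called genes each, and the 3 genes most like per and Clk. The members and lists were chosen with earlier results of these data known. The alternatives changed the pseudocount (0.1) and the filter (none, or a mean FPKM of 5), or used other sets of libraries in the fit, a replicate block, equal medians, no trend, the ratio of mean FPKM, leaving out each library, and for peaks any overlap, at least 50% of both, exonic blocks, an FDR of at most 0.01 and a fold enrichment of at least 5.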

Additional observations from a re-analysis of the deposited data

Results flagged for a closer look

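For 3 pairs of mutant and gene, the effect on RNA against yw males differed between mutants in the test of the difference itself (limma, adjusted over all genes). The effect on Clk in Mettl3 males exceeded that in Hakai males by 1.50 on the log2 scale, with an adjusted p of 0.0102, and both Mettl3 libraries were above both Hakai libraries. The effect on tim in Mettl3 males minus that in Hakai males was -0.66 (adjusted p = 0.0498), and in Mettl14 males minus Hakai males -0.83 (adjusted p = 0.0345), with both Hakai libraries highest. Each difference kept its direction when a library was left out, and the adjusted p then lay between 0.011 and 0.0861 for Clk, 0.0122 and 0.243 for tim in Mettl3 males, and 0.00874 and 0.148 for tim in Mettl14 males. The adjusted p of tim between Mettl3 and Hakai males was above 0.05 with a pseudocount of 0.1 and with no filter. It was also above 0.05 with a mean FPKM of at least 5 and with no trend. With the 4 libraries of the comparison alone, a replicate block or equal medians, it was under 0.05. Between Mettl14 and Hakai males it was above 0.05 with the 4 libraries alone and under 0.05 in the other alternatives without left-out libraries. The groups have 2 libraries each, too few for a check of single libraries that stand apart.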

How the results depend on the processing

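Calls at the size of 2 libraries a group rest on single libraries. When each library was left out in turn, the number of clock genes called ranged from 0 to 1 in Hakai males (Clk without yw male replicate 2 or Hakai male replicate 1, Pdp1 without Hakai male replicate 2), from 1 to 2 in yw females, from 0 to 1 between Mettl3 and Mettl14 males and from 1 to 2 between Mettl3 and Hakai males (cry added without Hakai male replicate 1). It was 0 in Mettl3 and Mettl14 males throughout. Log2 fold changes near 0 changed sign: in Mettl3 males tim ranged from -0.23 to 0.27, vri from -0.017 to 0.39 and cry from -0.40 to 0.041, in Mettl14 males per from -0.093 to 0.18, tim from -0.40 to 0.098 and cyc from -0.083 to 0.14, in Hakai males per from -0.37 to 0.31 and cwo from -0.085 to 0.23, and in yw females Pdp1 from -0.096 to 1.00 and tim from -0.029 to 0.47. With equal medians, tim in Mettl3 males was at -0.025, per and cyc in Mettl14 males at -0.087 and -0.10 (all genes moved by -0.13) and cry in yw females at 0.060. From the ratio of mean FPKM, tim in Mettl3 males was at -0.0035 and per in Hakai males at 0.0046. The cause was not tested.

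The replicate numbers were not taken as pairs, since the correlation of the deviations was 0.01 to 0.06 between Mettl3 and the other males. With a replicate block, the clock genes called stayed at 0 in each mutant and 1 in yw females, while 1 gene passed the adjusted p in Mettl3 (Clk, 0.0225), 1 in Mettl14 (vri, 0.0462) and 2 in Hakai males (tim, 0.0400, and Clk, 0.00915). Of all 13079 genes, 2212, 1789 and 1601 passed it in the Mettl3, Mettl14 and Hakai comparisons of this fit. With the 4 libraries of the comparison alone in the fit, 1 clock gene passed the adjusted p in Mettl3 and 0 in the other mutants. In a block fit of yw, Mettl14 and Hakai males only, added after seeing the data, the clock genes that passed in Hakai males were Clk and cry, beside 1979 of all 13053 genes.

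For the peaks, requiring at least 50% of both gave 17, 19, 11 and 14 yw male peaks without a partner in Mettl3, Mettl14 and Hakai males and yw females, and the 10 peaks enriched at least 5 times gave 4, 4, 1 and 0, beside 26.1%, 30.8%, 17.5% and 19.4% of all such peaks. The other overlap rules stayed within 1.5 times of the counts in the text. Leaving out peaks above an FDR of 0.01, added after seeing the data, removed the per 5′ UTR peak in Hakai males and no other highest 5′ UTR value. Depth is unknown, so weak peaks and low FPKM values cannot be told from noise.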
